A study of Mus musculus with 10 samples.

Results

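The regions described here are promoters that were occupied by lysine-specific demethylase 1 (LSD1) in limb muscle of fed mice and at which the glucocorticoid receptor (GR) was called after 24 h of starvation but not in the fed state. They were chosen by the presence or absence of peaks in the LSD1 fed, GR fed and GR starved lists. An LSD1 fed peak was included when its midpoint lay from 1 kb upstream to 100 bp downstream of a RefSeq transcription start site (TSS), when it shared no base with a GR fed peak and when it shared at least 1 bp with a GR starved peak. In total, 1618 of 16616 LSD1 fed peaks (9.74%), or 29.1% of the 5553 LSD1 fed peaks at promoters, met this rule. They are termed GR-gaining promoters below.

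Chromatin immunoprecipitation sequencing (ChIP-seq) had been performed on limb skeletal muscle of male C57BL/6J mice with a labelled age of 10 weeks, either fed or starved for 24 h. No transgene or drug treatment is given in the labels. For each condition, 1 library was made against GR, LSD1, histone H3 monomethylated at lysine 9 (H3K9me1) and dimethylated at lysine 9 (H3K9me2), together with 1 library of input chromatin. The reporting notes of the study state several mice per condition and repeated experiments, and how many mice or repeats entered each deposited library is not given in the sources used here. Both GR libraries carried one of 2 library codes and both LSD1 libraries the other, whereas the fed and the starved library of each histone mark carried different codes. Each group consisted of a single library, so that fed and starved muscle could not be tested against each other, and each share is given with its exact Clopper-Pearson 95% confidence interval (CI), which covers counting error only. A peak also cannot tell a larger proportion of occupied nuclei from stronger occupancy in each nucleus.

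GR is a ligand-activated transcription factor that is switched on by glucocorticoids, hormones whose circulating level rises during fasting, and it binds DNA either at palindromic response elements or indirectly through other factors. LSD1 is a flavin-dependent demethylase of mono- and dimethylated lysines on histone H3, including lysine 9, and it acts as a corepressor or a coactivator depending on its partners. H3K9me2 is known as a repressive mark and is generally sparse around active start sites, where GC-rich CpG islands are common.

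The peak lists differed in length between conditions. GR comprised 14108 peaks in fed and 37783 in starved muscle, LSD1 16616 and 66332, H3K9me1 14178 and 38023, and H3K9me2 171402 and 6624. The least stringent q-value was between 0.0925 and 0.0998 in the 8 lists. A region with no peak has no value in these lists, so that the absence of a GR fed call does not measure the GR signal there. An LSD1 fed promoter peak was held by 16 of 30 sarcomere genes (53.3%), 48 of 82 cytosolic ribosome genes (58.5%), 0 of 1125 olfactory receptor genes and 22.4% of all genes, so that these lists do not test whether the tissue was muscle.

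Sequences of selected GR-gaining promoters are shown first, since base composition and motifs are described further below. Each is given 5′ to 3′ on the strand of the gene, in mm10 (GRCm38) coordinates, and is a stretch of the LSD1 fed peak outside annotated exons, with at most 300 bases. Capitals mark matches to any of the 14 motifs searched. The first 2 belong to the promoters with the highest GR starved fold: an intronic stretch at Klf15 (chr6:90462726-90462808, + strand) and the upstream stretch at Eif4ebp1 (chr8:27260053-27260326, + strand), in which the capitals are a muscle E-box (CAGCTG) and a GC box (GGGCGG).
Klf15: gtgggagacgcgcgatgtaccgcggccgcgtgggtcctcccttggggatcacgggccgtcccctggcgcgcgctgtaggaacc
Eif4ebp1: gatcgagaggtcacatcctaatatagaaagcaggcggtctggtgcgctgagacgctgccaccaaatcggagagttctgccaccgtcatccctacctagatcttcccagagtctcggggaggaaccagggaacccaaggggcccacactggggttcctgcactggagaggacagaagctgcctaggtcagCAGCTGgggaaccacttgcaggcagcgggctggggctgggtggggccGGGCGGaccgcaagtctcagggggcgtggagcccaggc

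The next 3 lie upstream of genes of muscle structure and insulin signalling. They are the whole LSD1 fed peaks at Foxo1 (chr3:52267908-52268109, + strand), at Des (chr1:75359537-75359629, + strand) and at Tnni2 (chr7:142440798-142440954, + strand). In Foxo1 the capitals mark 2 GC boxes, the second on the opposite strand, and 1 match to the FOXO motif TGTTTAC on the opposite strand. In Des they mark 1 GC box, and in Tnni2 none of the motifs was matched.
Foxo1: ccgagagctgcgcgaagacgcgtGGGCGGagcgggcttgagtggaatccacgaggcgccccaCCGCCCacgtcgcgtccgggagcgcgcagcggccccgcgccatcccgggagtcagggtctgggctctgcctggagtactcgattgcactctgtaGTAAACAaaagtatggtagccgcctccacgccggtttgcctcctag
Des: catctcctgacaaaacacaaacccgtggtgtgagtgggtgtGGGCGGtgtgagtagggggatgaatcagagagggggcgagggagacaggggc
Tnni2: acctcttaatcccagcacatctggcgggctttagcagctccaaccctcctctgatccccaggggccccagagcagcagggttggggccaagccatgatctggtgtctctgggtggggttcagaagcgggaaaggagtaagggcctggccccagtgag

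Short LSD1 fed peaks without any of these motifs are exemplified by Psmb2 (chr4:126677539-126677593, + strand), Pik3r3 (chr4:116221310-116221364, + strand) and Kdm4a (chr4:118180195-118180249, - strand), each shown whole at 55 bp, the shortest length among the members.
Psmb2: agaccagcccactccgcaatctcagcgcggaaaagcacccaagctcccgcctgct
Pik3r3: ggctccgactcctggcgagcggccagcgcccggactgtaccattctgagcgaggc
Kdm4a: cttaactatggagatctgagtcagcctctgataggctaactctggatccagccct

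The last 3 carry the motifs that bear on GR and on nuclear respiratory factor 1 (NRF1). At BC025920 (chr10:81605659-81605958, + strand) the capitals mark a sequence that resembles a glucocorticoid response element (GRE), with 1 mismatch. At Bcdin3d (chr15:99474731-99474836, - strand) they mark the NRF1 motif, and at Paxbp1 (chr16:91044380-91044579, - strand) the NRF1 motif and a GC box on the opposite strand.
BC025920: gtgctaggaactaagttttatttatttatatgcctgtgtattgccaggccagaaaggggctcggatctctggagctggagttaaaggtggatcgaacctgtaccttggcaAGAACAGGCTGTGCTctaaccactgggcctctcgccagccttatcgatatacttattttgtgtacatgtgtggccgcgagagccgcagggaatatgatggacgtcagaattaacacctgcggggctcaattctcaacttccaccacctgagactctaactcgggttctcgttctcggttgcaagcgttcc
Bcdin3d: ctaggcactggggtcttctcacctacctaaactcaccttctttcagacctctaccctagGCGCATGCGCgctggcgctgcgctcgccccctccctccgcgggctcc
Paxbp1: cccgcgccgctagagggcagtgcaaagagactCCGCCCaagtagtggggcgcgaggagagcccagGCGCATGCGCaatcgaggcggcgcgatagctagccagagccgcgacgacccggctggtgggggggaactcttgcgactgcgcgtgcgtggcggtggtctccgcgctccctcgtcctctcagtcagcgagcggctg

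GR was called in starved muscle at 49.2% (95% CI 47.5 to 50.9) of the 3288 LSD1 fed promoter peaks that had no GR fed peak. Among LSD1 fed peaks outside promoters the same share was 29.2% (28.0 to 30.3, 1812 of 6214). For comparison, 83.9% (82.3 to 85.4) of the 2265 LSD1 fed promoter peaks already bound by GR in fed muscle were bound after starvation as well. The remaining LSD1 fed promoter peaks comprised 1900 with GR in both conditions, 365 with GR in fed muscle alone and 1670 without a GR peak in either list.

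The proportion of promoters with a GR starved peak was higher where the LSD1 fed peak was longer. It was 39.2% for LSD1 peaks shorter than 100 bp, 42.9% from 100 to 199 bp, 49.3% from 200 to 299 bp, 61.8% from 300 to 499 bp and 72.0% (65.3 to 78.0) from 500 bp. It was also higher for higher LSD1 fed fold, with 42.5% among the lowest and 56.0% among the highest 25% of folds. A longer peak has a larger chance of sharing a base with any other list, and the part of length in this difference was not tested.

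At the GR-gaining promoters, the LSD1 fed fold over input ranged from 3.15 to 9.08 with a median of 3.98, and the peak length from 55 to 1236 bp with a median of 228 bp. The GR starved fold ranged from 2.12 to 7.63 with a median of 2.72, at a median length of 438 bp and a median q-value of 0.0104. The LSD1 fed fold exceeded the GR starved fold at 1606 of the 1618 promoters, whereas the LSD1 fed peak was the longer of the pair at 389. The lowest LSD1 fed fold (3.15) was already above the third quartile of the GR starved fold (2.92). Folds of these lists need not share a scale, so the count does not compare occupancy by LSD1 and GR. A GR starved q-value of 0.01 or less was reached at 787 of the promoters (48.6%) and a q-value of 1e-05 or less at 42. The GR starved fold was 3 or more at 287 and 5 or more at 3. Promoters with GR in both conditions had a median GR starved fold of 2.84, and 67.6% of them reached a q-value of 0.01. These values took part in the choice of the regions and are given as a description.

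At 192 GR-gaining promoters (11.9%, 10.3 to 13.5), the GR starved peak that overlapped the LSD1 peak also reached a GR fed peak beside it. These GR starved peaks were longer, with a median of 848 bp against 402 bp at the other 1426 promoters, and their median fold was 2.84 against 2.70. At 151 of the 192 (78.6%) the neighbouring GR fed peak had a higher fold than the GR starved peak, and at 180 it was the shorter of the pair. At promoters with GR in both conditions, the median fold was likewise higher for GR fed (3.10) than for GR starved (2.84). The GR lists differed in length, so that their folds need not be on a shared scale. GR starved peaks that reached a GR fed peak were frequent among the highest GR starved folds, accounting for 7 of the 10 highest and 24 of the 100 highest. In these cases a GR fed peak was thus already present beside the LSD1 peak. A GR fed peak lay within 500 bp of 210 GR-gaining promoters (13.0%, 11.4 to 14.7), and this share was 11.9% at LSD1 promoters without GR.

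**Figure D1:**
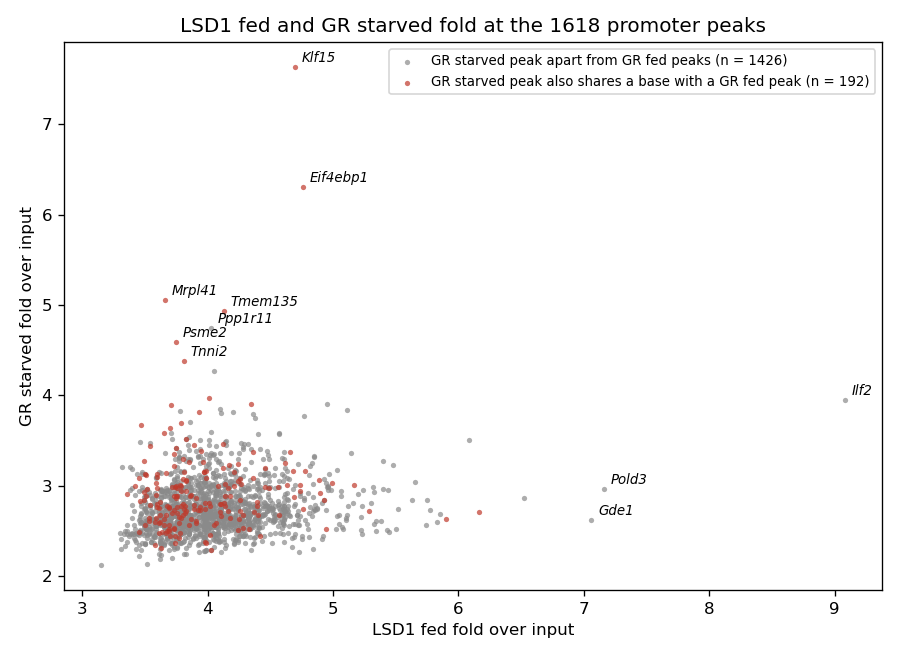
LSD1 fed fold over input (x axis) against GR starved fold over input (y axis) for each of the 1618 GR-gaining promoters, 1 point per LSD1 fed peak. Red points are the 192 whose GR starved peak also shared a base with a GR fed peak, and they include the 4 highest GR starved folds (Klf15, Eif4ebp1, Mrpl41 and Tmem135), whereas Ilf2 and Pold3 have the highest LSD1 fed folds.

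The highest GR starved fold was found at Klf15, which encodes a zinc-finger factor that promotes amino acid breakdown in muscle. Its GR starved peak had a fold of 7.63 over 2045 bp, and its LSD1 fed peak (chr6:90462487-90462808, exonic at its midpoint) a fold of 4.70. LSD1 was called again in starved muscle at a fold of 3.53, over 81 bp. The H3K9me1 starved list had a peak there (fold 3.64), whereas the other histone lists had none on the LSD1 peak. A GR fed peak of 732 bp with a fold of 9.62 started 657 bp downstream of the TSS, and a further LSD1 fed peak (fold 6.42) lay within it. At Eif4ebp1, which encodes the translational repressor 4E-BP1, the GR starved fold was 6.30 over 1624 bp and the LSD1 fed fold was 4.76. Here no peak of the LSD1 starved or of any histone list overlapped the LSD1 fed peak, and a GR fed peak of 692 bp with a fold of 6.45 started 685 bp downstream of the TSS. At both genes the fed GR peak thus sat inside the gene. Its fold was above that of the starved peak that covered the promoter, on scales that need not be shared between the GR lists.

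**Figure D2:**
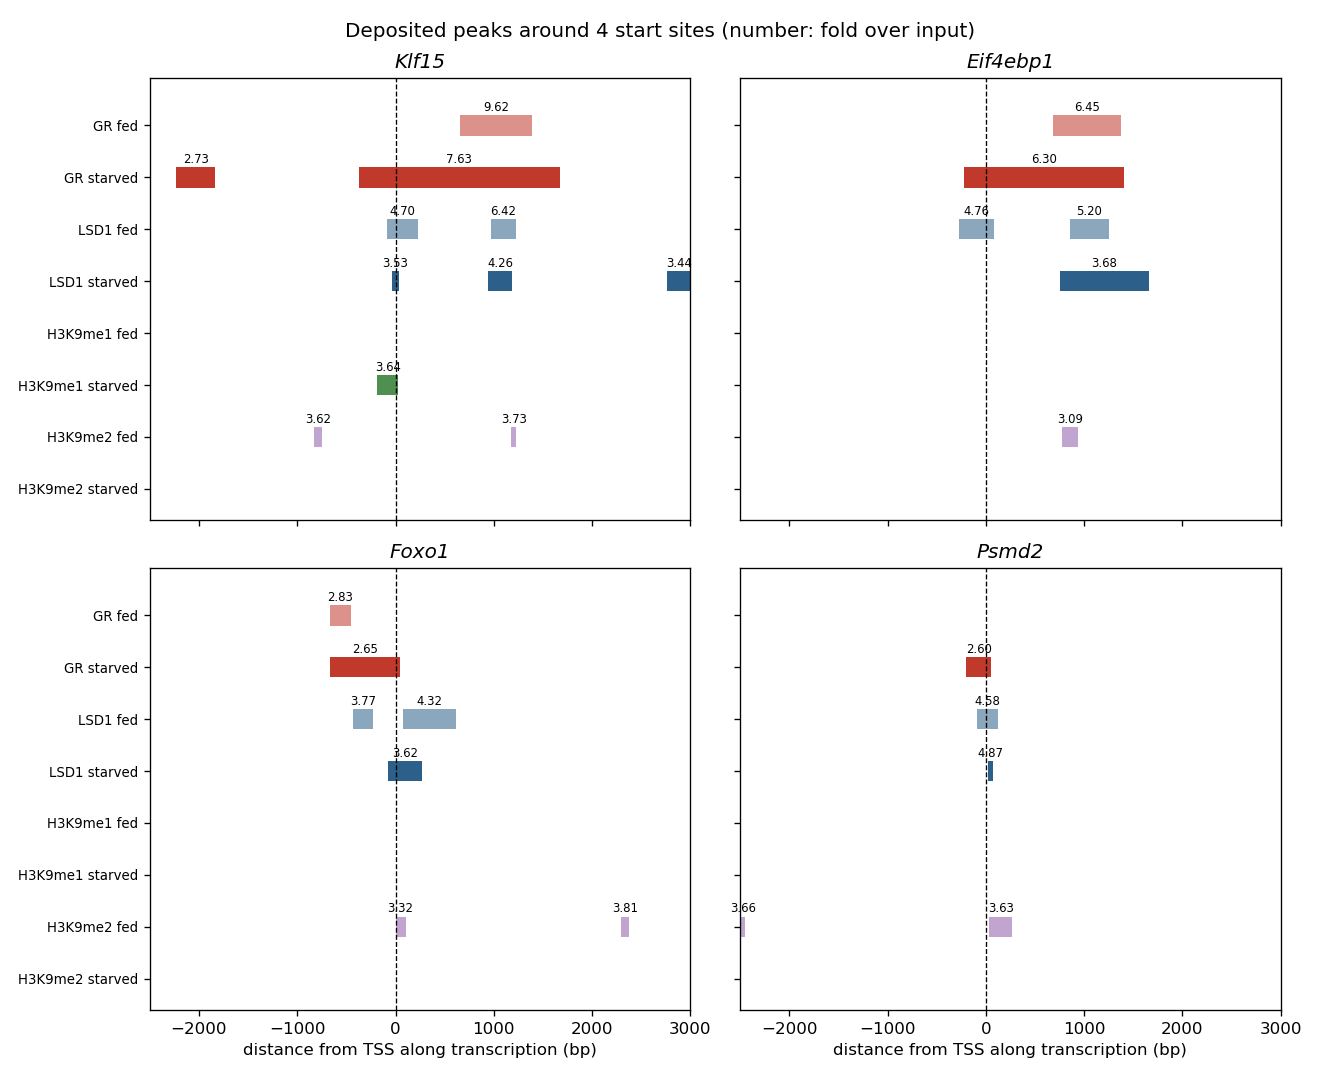
Deposited peaks of the 8 lists around the TSS of Klf15, Eif4ebp1, Foxo1 and Psmd2, drawn to scale as bars along the distance from the TSS in bp (x axis, dashed line at the TSS, peaks cut at the plot edges) with the fold over input above each bar. The GR starved bar spans the TSS in all 4 panels, and in Klf15, Eif4ebp1 and Foxo1 it also covers or reaches a GR fed bar, whereas Psmd2 has no GR fed bar.

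Mrpl41 (chr2:24974871-24975494, upstream), a subunit of the mitochondrial ribosome that shares the promoter window with Pnpla7, had a GR starved fold of 5.05, and its LSD1 fed peak had a fold of 3.66 and its LSD1 starved peak a fold of 3.86. At Tmem135 (chr7:89404066-89404403, upstream, shared with Fzd4) the GR starved fold was 4.93, the LSD1 fed fold 4.13 and the LSD1 starved fold 3.44. Psme2 (chr14:55591036-55591208, upstream, shared with Rnf31), a subunit of the PA28 proteasome activator, had a GR starved fold of 4.59 and an LSD1 fed fold of 3.75. At Tnni2, which encodes fast troponin I, the GR starved fold was 4.38 and the LSD1 fed fold 3.81, with an H3K9me2 fed peak at a fold of 3.42. Des, which encodes the intermediate filament desmin, had a GR starved fold of 3.97 and an LSD1 fed fold of 4.01. The GR starved peaks of all 5 also reached a GR fed peak, with GR fed folds of 6.34 at Mrpl41, 7.16 at Tmem135, 4.45 at Psme2, 4.64 at Tnni2 and 5.07 at Des.

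Some of the 10 highest GR starved folds belonged to GR starved peaks that reached no GR fed peak. Ppp1r11 (chr17:36951578-36951945, exonic), an inhibitory subunit of protein phosphatase 1, had a GR starved fold of 4.75 over 196 bp, and the nearest GR fed peak was 679932 bp away. Its LSD1 peak was called in fed (fold 4.03) and starved muscle (3.95) and overlapped an H3K9me2 fed peak (3.05). Ilf2 (chr3:90475861-90475936, upstream), an RNA-binding cofactor, combined a GR starved fold of 3.95 with the highest LSD1 fed fold of all GR-gaining promoters (9.08, over 76 bp) and held no peak of the LSD1 starved or histone lists. The next highest LSD1 fed folds were 7.16 at Pold3, an accessory subunit of DNA polymerase delta, and 7.06 at Gde1, a glycerophosphodiesterase, where the GR starved folds were 2.96 and 2.62. Of the GR starved peaks that reached no GR fed peak, further high folds, named after their values were seen, were 3.90 at Akirin2, 3.85 at Cpt1b, the muscle form of the enzyme that admits fatty acids to mitochondria, 3.84 at Emd, which encodes emerin, and 3.83 at Ampd3, an AMP deaminase. Their LSD1 fed folds were 4.95, 4.10, 5.11 and 3.78, and LSD1 was called again in starved muscle at Cpt1b (3.90) alone of these 4.

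Most GR-gaining promoters lay close to the start site. The midpoint of the LSD1 fed peak was at a median of -65 bp, and 82.7% (80.8 to 84.5) of midpoints lay within 250 bp of the TSS, against 74.4% (72.3 to 76.5) at LSD1 promoters without a GR peak and 78.7% at all LSD1 fed promoter peaks. By midpoint, 1158 (71.6%) were upstream, 444 (27.4%) in an exon and 16 in an intron. The GR starved peak covered the TSS at 71.9% and enclosed the whole LSD1 peak at 43.0% of them, against 74.9% and 41.6% at promoters with GR in both conditions. Along the direction of transcription, the GR midpoint was displaced from the LSD1 midpoint by a median of 20 bp, and the distance was at most 100 bp at 695 promoters (43.0%). A gene on the other strand shared the window at 219 promoters (13.5%), and 93.0% of the nearest transcripts were protein-coding. Over all LSD1 fed promoter peaks these shares were 12.6% and 92.7%, and thus close to those of the GR-gaining promoters.

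**Figure D3:**
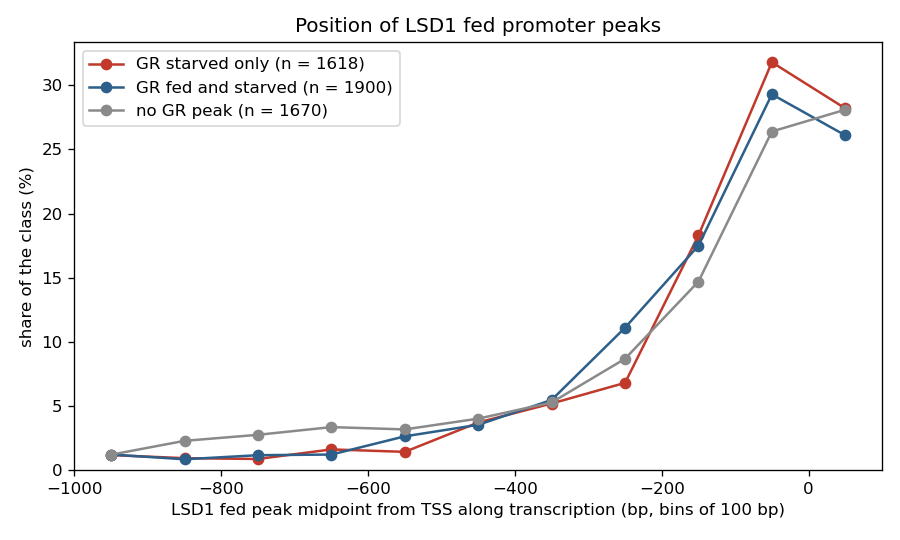
Share of LSD1 fed promoter peaks (y axis, % of each class) by the position of the peak midpoint relative to the TSS along transcription (x axis, bp, bins of 100 bp) for promoters with GR in starved muscle alone, in both conditions and in neither. All 3 classes are highest next to the TSS, and fewer GR-gaining promoters (6.00%) than promoters without GR (12.8%) lie 500 bp or more upstream.

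The windows around these promoters were GC-rich. In 300 bp centred on the LSD1 midpoint, the median GC content was 65.3% and the median ratio of observed to expected CpG was 0.853, compared with 55.7% and 0.514 in 300 bp (250 before and 50 after the TSS) at all RefSeq start sites. With a GC content of at least 50% and a CpG ratio of at least 0.6 as criteria, 84.2% (82.3 to 85.9) of GR-gaining promoters were CpG-island-like, compared with 79.1% (77.2 to 80.9) of those with GR in both conditions, 76.3% (74.2 to 78.4) of those without GR and 79.9% of all LSD1 fed promoters.

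Few windows held a canonical GRE. The motif searched was AGAACA and TGTTCT separated by 3 bases, with 1 mismatch allowed, on both strands, and it was matched in the 300 bp window of 1 GR-gaining promoter (0.0618%). It was matched at 4 of 1900 promoters with GR in both conditions and at 0 of 1670 without GR. Over all LSD1 fed promoter peaks it was matched at 5 of 5553 (0.09%), and at 0.139% of all start sites. The single match was at BC025920, where the GR starved fold was 2.48 (q-value 0.0305), the LSD1 fed fold 3.94 and no LSD1 starved or histone peak was called. The matched bases, shown in capitals above, lay within the LSD1 fed peak and outside the GR starved peak. The hexamer TGTTCT alone, which is contained in the exact full motif, was present in 7.54% (6.30 to 8.94) of windows, compared with 9.35% of all LSD1 fed promoters and 17.0% of all start sites. The windows were centred on the LSD1 fed peak, so parts of the GR starved peak outside them were not searched. Response elements with more than 1 mismatch were not counted.

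The GC box GGGCGG, bound by SP and KLF factors, was present at 71.7% (69.4 to 73.9) of GR-gaining promoters, at 72.4% of those with GR in both conditions and at 61.6% (59.2 to 63.9) of those without GR, with 68.8% of all LSD1 fed promoters and 43.2% of all start sites. NFY motifs (GCCAAT) were present at 19.8% (17.9 to 21.9), 22.4% and 14.0% (12.3 to 15.7) of the same classes, with 18.7% of all LSD1 fed promoters and 16.0% of all start sites. The cyclic AMP response element TGACGTCA was present at 4.45% (3.50 to 5.57), compared with 2.32% (1.69 to 3.10) at promoters with GR in both conditions, 3.17% at those without GR, 3.15% at all LSD1 fed promoters and 2.21% at all start sites. For the ETS motif CCGGAAG the share was 18.3%, against 17.1% of all LSD1 fed promoters, and for YY1 (AAGATGGC) it was 5.75% against 4.95%. The TATA box TATAAAA was rare, at 1.17% against 4.87% of all start sites. The muscle E-box CAGCTG was matched at 17.1%, the clock E-box CACGTG at 10.8%, the ZNF143 motif ACTACAA at 4.94%, the ERR motif AAGGTCA at 2.72% and the FOXO motif TGTTTAC at 1.98% of GR-gaining promoters, against 16.7%, 9.81%, 4.61%, 3.03% and 2.32% of all LSD1 fed promoters. All motifs were searched on both strands, a match does not show a bound site, and the part of base composition in these shares was not tested.

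NRF1, a regulator of genes for mitochondrial respiration, recognises 2 copies of GCGC separated by AT. Its exact motif was found in the 300 bp window of 34 GR-gaining promoters (2.10%, 1.46 to 2.92), against 2.03% of all LSD1 fed promoters and 1.09% of all start sites. Within the LSD1 peak itself it was found at 31 (1.92%), against 1.98% of all LSD1 fed promoter peaks. Of these 31, the highest GR starved folds were 3.49 at Bcdin3d, an RNA methyltransferase, 3.30 at Paxbp1, a partner of PAX3 and PAX7, 3.03 at the zinc-finger gene Zfp213, 3.01 at Gmcl1 and 2.95 at Dohh, the hydroxylase that completes hypusine on a translation factor. Their LSD1 fed folds were 4.15, 4.49, 4.94, 3.76 and 3.68 in that order. LSD1 was called again in starved muscle at Zfp213 (3.97) and Gmcl1 (3.47), and H3K9me2 fed peaks were present at Zfp213 (3.68), Gmcl1 (3.72) and Dohh (2.84). None of the 5 GR starved peaks reached a GR fed peak.

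**Figure D4:**
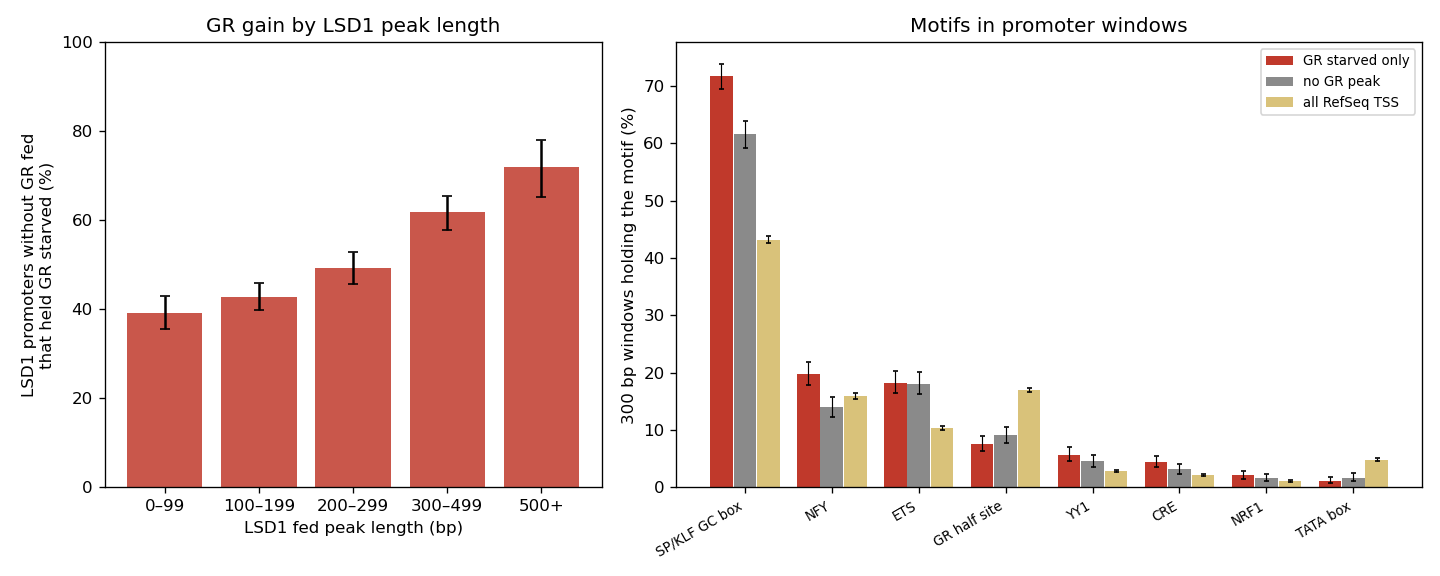
Left, share of LSD1 fed promoter peaks without GR fed that held a GR starved peak (y axis, %) by the length of the LSD1 fed peak (x axis, bp), from 39.2% below 100 bp to 72.0% from 500 bp. Right, share of 300 bp windows with each motif (y axis, %) for GR-gaining promoters, LSD1 promoters without GR and all RefSeq start sites, with the GC box at 71.7%, 61.6% and 43.2%, where error bars in both panels are exact 95% CIs.

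LSD1 was called again in starved muscle at 584 GR-gaining promoters (36.1%, 33.7 to 38.5), whereas 35.1% of all LSD1 fed promoter peaks had an LSD1 starved peak. With the lists as deposited, the share was therefore close to the background and is no result about these promoters. All LSD1 starved values rest on a deposited list that is longer than the LSD1 fed list, whereas the study text describes a far shorter list after starvation, so that the deposited list may be another version. The share lay between that at promoters with GR in both conditions, where 950 of 1900 had such a peak (95% CI 47.7 to 52.3%), and the 18.7% (16.9 to 20.7) at those without GR. This order was seen within each class of LSD1 fed peak length, with 29.3%, 22.7% and 12.1% below 150 bp and 61.5%, 48.5% and 36.4% from 300 bp (GR in both conditions, GR-gaining, without GR), where all LSD1 fed promoter peaks had 19.6% and 52.8%. It was also seen in windows fixed at 300 bp, with 49.5%, 37.6% and 21.0%, and within 1000 bp on each side, with 63.3%, 52.6% and 35.5%, where all LSD1 fed promoter peaks had 36.1% and 50.7%. Promoters with GR in fed muscle alone are not part of this order. They had 27.4% below 150 bp, 17.4% from 150 to 299 bp and 41.4% from 300 bp. The GR-gaining promoters had 22.7%, 34.8% and 48.5%. At a q-value of 0.01 or less, LSD1 starved peaks remained at 125 GR-gaining promoters (7.73%) and at 8.21% of all LSD1 fed promoter peaks.

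In the 584 promoters with LSD1 in both conditions, the fed peak had the higher fold in 495 and was the longer in 377, with median folds of 4.02 and 3.51 and median lengths of 276 and 196 bp. The LSD1 starved list was the longer and had the shorter peaks, so that folds are not on a shared scale between the lists. The highest LSD1 starved fold was 5.23 at Cyp51 (chr5:4104362-4105065, upstream), an enzyme of cholesterol synthesis, where the LSD1 fed fold was 4.19 and the GR starved fold 2.81. It was followed by Rybp, a Polycomb subunit (5.13, with 3.99 for LSD1 fed and 2.66 for GR starved), and by Psmd2, a subunit of the regulatory particle of the proteasome (4.87, with 4.58 and 2.60). Dusp5, a phosphatase of ERK kinases, had 4.82, with 3.92 for LSD1 fed and 2.95 for GR starved, and Psmd7, another such subunit, had 4.78, with 4.15 and 2.86. At these 5 promoters the LSD1 starved fold was above the LSD1 fed fold. They were picked by their LSD1 starved fold, so that this is no separate result. Their GR starved folds were below 3, as at most GR-gaining promoters, of which 17.7% reached a fold of 3. The proportion with LSD1 starved was 30.6% (26.2 to 35.4) among the lowest and 44.4% (39.5 to 49.4) among the highest 25% of GR starved folds. Over all LSD1 fed promoter peaks it was 35.1%. The GR starved values took part in the choice of the regions, and LSD1 fed peak length was not held fixed. Whether LSD1 starved goes with GR starved fold was not tested.

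H3K9me2 was called in fed muscle at 445 GR-gaining promoters (27.5%, 25.3 to 29.7), against 27.2% of all LSD1 fed promoter peaks, and thus at the background share. At promoters with GR in both conditions the share was 35.3% (33.2 to 37.5), and at those without GR 18.6% (16.8 to 20.6). In starved muscle, H3K9me2 was called at 1 GR-gaining promoter (0.0618%) and at 0.036% of all LSD1 fed promoter peaks. This promoter, named after its value was seen, was that of the glycolytic gene Pgk1, with an H3K9me2 starved fold of 3.83 and an H3K9me1 starved fold of 5.63. The fed and starved H3K9me2 lists held 171402 and 6624 peaks and their libraries carried different codes, so that starvation and library cannot be told apart. H3K9me1 was called at 31 GR-gaining promoters in fed (1.92%, background 2.41%) and at 40 in starved muscle (2.47%, background 2.56%).

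**Figure D5:**
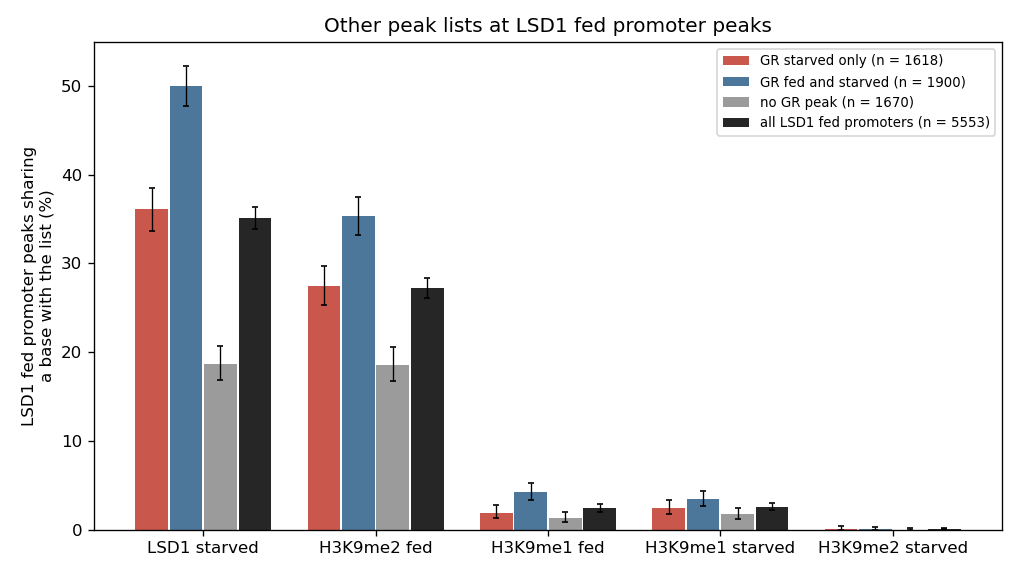
Share of LSD1 fed promoter peaks (y axis, %) that shared a base with each of 5 other lists (x axis), for promoters with GR in starved muscle alone, in both conditions, in neither and for all LSD1 fed promoter peaks, with exact 95% CIs. GR-gaining promoters lie at 36.1% for LSD1 starved and 27.5% for H3K9me2 fed, next to the bars of all LSD1 fed promoters at 35.1% and 27.2%.

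H3K9me2 fed peaks were found at 34.2% (30.4 to 38.3) of the GR-gaining promoters with LSD1 in starved muscle and at 23.7% (21.1 to 26.4) of those without it. Among all LSD1 fed promoter peaks the same shares were 35.0% and 23.0%, so that this difference is the background and not a trait of the GR-gaining promoters. The median LSD1 fed peak length of these sets was 276 and 203 bp. Taken by combination, 200 promoters (12.4%) held both LSD1 starved and H3K9me2 fed, 384 (23.7%) LSD1 starved alone, 245 (15.1%) H3K9me2 fed alone and 789 (48.8%) neither. The shares over all LSD1 fed promoter peaks were 12.3%, 22.8%, 14.9% and 49.9% in the same order, close to those of the GR-gaining promoters. The highest H3K9me2 fed fold was 11.7 at Rn7s1 (chr12:69159092-69159551, exonic, shared with Rps29), a 7SL RNA gene of the signal recognition particle that has near-identical copies in the genome, so that its values are uncertain. It also had an H3K9me1 fed fold of 5.58, an LSD1 fed fold of 5.52 and a GR starved fold of 2.74. At Stxbp3, a regulator of vesicle fusion, the H3K9me2 fed fold was 5.48, the LSD1 fed fold 3.95 and the GR starved fold 3.38, with a GR starved peak that reached a GR fed peak (3.27). Psmb2 followed with an H3K9me2 fed fold of 5.16, an LSD1 fed fold of 4.28 and a GR starved fold of 3.11, and the starved LSD1 list had no peak at Stxbp3 or Psmb2.

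The GR-gaining promoters lay in the windows of 1820 genes, or 31.0% of the 5863 genes with an LSD1 fed promoter peak. This value serves as the background for the gene lists that follow, none of which was tested against it. By the nearest start site they belonged to 1581 genes, 37 of which had 2 such LSD1 peaks, and they lay under 1583 GR starved peaks. Of the 1820 genes, 96 also had a GR fed peak on another LSD1 fed promoter peak, so that a gene can count in more than 1 class. Over all genes, 2118 of the 5863 had an LSD1 promoter peak with GR in both conditions. Of 51 proteasome genes, 22 had an LSD1 fed promoter peak and 6 a GR-gaining one (27.3%). Besides Psme2, Psmb2, Psmd2 and Psmd7, these were Psmb3, a core subunit gene with 2 LSD1 peaks (LSD1 fed folds 3.97 and 3.59) under 1 GR starved peak (2.55), and Psmc4, an ATPase of the regulatory particle (4.14 for LSD1 fed, 2.56 for GR starved, 3.68 for LSD1 starved and 3.35 for H3K9me2 fed). The cytosolic ribosome had 19 of 48 (39.6%), the E2 ubiquitin-conjugating enzymes 10 of 22 (45.5%), the mitochondrial ribosome 11 of 35 (31.4%) and the respiratory chain 12 of 43 (27.9%). Lower counts were found for splicing factors, with 4 of 32 (12.5%, 3.51 to 29.0), and for aminoacyl-tRNA synthetases, with 2 of 18. The counts were 10 of 30 for F-box proteins, 9 of 38 for DnaJ and Hsp chaperones, 45 of 127 for zinc finger genes named Zfp, 8 of 23 for translation initiation factors, 5 of 16 for Mediator and 3 of 12 for mitochondrial import.

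Among genes of muscle protein breakdown, the autophagy list had 1 of 21 LSD1-bound genes with a GR-gaining promoter (4.76%, 0.12 to 23.8). This was Sqstm1, which encodes the cargo receptor p62, with an LSD1 fed fold of 3.51, a GR starved fold of 2.52, an LSD1 starved fold of 3.47 and an H3K9me2 fed fold of 3.39. For muscle ubiquitin ligases it was 0 of 13, for which the exact CI reached 24.7% and a limit of 3 counts 23.1%. Of the latter genes, 12 had an LSD1 promoter peak with GR in both conditions, as had 11 of the autophagy genes.

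The insulin and mTOR list had 8 of 21 genes (38.1%, 18.1 to 61.6). Of the same 21 genes, 10 had an LSD1 promoter peak with GR in both conditions. Beside Klf15 and Eif4ebp1, the 8 genes with a GR-gaining promoter comprised the FoxO factors, which are restrained by insulin and induce atrophy genes. At Foxo1 the LSD1 fed fold was 3.77 and the GR starved fold 2.65, and the GR starved peak reached a GR fed peak (2.83) that ended 23 bp from the LSD1 peak. At Foxo3 the LSD1 fed fold was 3.63 and the GR starved fold 2.23, with a GR fed peak 573 bp away that the GR starved peak did not reach. Regulatory subunits of PI3-kinase were represented by Pik3r1 (LSD1 fed 3.57, GR starved 2.81) and by Pik3r3, with LSD1 fed peaks of 4.32 and 4.60 under 1 GR starved peak of 2.58. Of the mTOR complexes, Rictor had 4.04 and 3.14, and Mlst8 had 3.70 and 2.44, with LSD1 starved at 3.48, H3K9me2 fed at 3.37 and a GR fed peak (2.80) reached by the GR starved peak. Of the GR-gaining LSD1 peaks at these 8 genes, those of Klf15 and Mlst8 overlapped an LSD1 starved peak, whereas Foxo1 (3.62) and Eif4ebp1 (3.68) had LSD1 starved peaks elsewhere around the start site. Peaks around the start site were mapped for Klf15, Eif4ebp1 and Foxo1 alone of these genes. Within 2500 bp on each side, 56.6% of all LSD1 fed promoter peaks had an LSD1 starved peak.

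Calcium handling genes accounted for 4 of 17 (23.5%). Of the same 17 genes, 12 had an LSD1 promoter peak with GR in both conditions. Cacna1s, the voltage sensor of excitation-contraction coupling, had an LSD1 fed fold of 4.21, a GR starved fold of 2.63 and an LSD1 starved fold of 3.90. Its accessory subunit Cacng1 had 4.15 and 2.65, with no LSD1 starved peak. Ryr1, the calcium release channel, had 3.51, 3.12 and 3.53, and Mcu, the mitochondrial calcium uniporter, had 4.42, 2.60 and 4.40 in the same order. GR starved folds at these 4 genes were between 2.60 and 3.12, and the GR starved peak of Ryr1 also reached a GR fed peak (3.28).

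Sarcomere genes had 7 of 16 (43.8%, 19.8 to 70.1), and those not yet described were named after their values were seen. Of the same 16 genes, 12 had an LSD1 promoter peak with GR in both conditions, so that some of the 7 held both kinds of peak. Besides Tnni2 and Des, Tnnt3, which encodes fast troponin T, had a GR starved fold of 3.35 and an LSD1 fed fold of 3.73, and Ttn, which encodes titin, 3.16 and 3.99. At Ldb3, a Z-disc gene, the GR starved peak of 2836 bp had a fold of 3.46, and a GR fed peak (3.99) began 4 bp from the LSD1 peak (4.12). Actn2 (GR starved 2.95, LSD1 fed 3.51) and Mylpf, which shares its promoter with Tbc1d10b (2.73 and 3.73), completed the list. The GR starved peak reached a GR fed peak at 6 of these 7 genes, the exception being Actn2, against 192 of all 1618 GR-gaining promoters (11.9%). At these 6 genes a GR fed peak was thus already called beside the LSD1 peak.

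Genes of the GR and LSD1 machinery also had GR-gaining promoters, with 4 of 11 coregulators. The GR gene Nr3c1 itself had an LSD1 fed fold of 3.85 and a GR starved fold of 2.75, with H3K9me2 fed at 2.87 and a GR fed peak 667 bp away. Ep300, a histone acetyltransferase, had 3.71 and 2.64, Nrf1 4.94 and 2.73 and Ptges3, the p23 cochaperone of steroid receptors, 4.86 and 2.79. Of 8 H3K9 enzymes with LSD1 fed at the promoter, 2 demethylases were included, Kdm4a (LSD1 fed 5.38, GR starved 2.61, H3K9me2 fed 3.70) and Kdm7a (4.05, 2.72 and 3.59). Of 13 clock genes with LSD1 fed at the promoter, 10 had such a peak with GR in both conditions and 3 a GR-gaining one. These 3 were named after their values were seen. Among them Tef had the highest GR starved fold (3.64, with LSD1 fed 3.70), followed by Bhlhe41 (2.90 and 3.42) and Nfil3 (2.89 and 3.51), and the GR starved peaks of Tef and Nfil3 reached GR fed peaks with folds of 5.11 and 3.42.

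The regions at the limits of the rule were as follows. Snapc3 adjoined a GR fed peak without sharing a base, and Angel2 and 2900060B14Rik lay 1 and 2 bp from one, whereas Akr1a1, Clpp and Cox16 shared 1 bp with a GR fed peak and were not counted. Arpc4, Rps25 and Smpd3 shared 1 bp with a GR starved peak, whereas a further LSD1 peak at Arpc4 and one at Ptpn9 adjoined a GR starved peak and one at Ptpn1 lay 1 bp away. In the position window, Maf, Plekhb1 and Dyrk2 were at -1000, -995 and -986 bp and Mtmr12, Zfp69 and 2410006H16Rik at 100, 99 and 98 bp. Just beyond it were Phf23, Cyp46a1 and Arhgap17 at -1003, -1006 and -1009 bp and Bcas3, Sec24d and Prdx1 at 101 bp each. In all, 54 GR-gaining promoters lay within 50 bp of a GR fed peak and 127 shared fewer than 50 bp with the GR starved peak. Of the 1670 LSD1 promoters without GR, 111 lay within 50 bp of a GR starved peak.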

How the data were processed

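Libraries of limb muscle chromatin were sequenced by the authors, demultiplexed with bcl2fastq 2.20.0.422 per the labels and mapped to mm10. Reads with 1 location were kept, and a blacklist made for the human genome was applied. Peaks were called per library with MACS2 in broad mode, with input as control. Each deposited list gives per peak a fold enrichment over input, which is a ratio, and −log10 of a p-value and of a q-value, as the authors' caller wrote them. A deposited score was not used. The lists reached q-values close to 0.1, above the filter stated in the methods, and the peak names carry another aligner version than the methods. The deposited LSD1 starved list is longer than the LSD1 fed list, whereas the study text describes a far shorter one, and it may be another version. Inputs entered only through peak calling, reads were not analysed here, and the depth of each library is unknown.

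Groups were taken from the sample labels. Overlaps of at least 1 bp, midpoints, distances and motifs were computed with Python 3.11.15, pandas 2.3.3 and pysam 0.24.0, and intervals with scipy 1.17.1. Start sites were those of 45756 curated RefSeq transcripts of 26180 genes, and sequences were read from the same RefSeq assembly, GRCm38. Where several peaks overlapped, the one with the highest fold was used. The functions for overlap, nearest distance, promoter assignment, motif matching and the bases covered after merging were tested on simulated data and made no error. Named genes were the 10 highest GR starved folds, the 3 highest LSD1 fed folds, the 5 highest LSD1 starved folds, the 5 highest GR starved folds with an NRF1 motif in the LSD1 peak, the 3 highest H3K9me2 fed folds, every carrier of a GRE-like sequence, the members of the lists for proteasome, autophagy, muscle ubiquitin ligases, insulin and mTOR, calcium handling, coregulators and H3K9 enzymes, and the regions at the limits of the rule. One gene that this rule names is not reported here. The regions, gene lists and motifs were chosen with earlier results of these data known. With 1 library per group there is no test and no p-value between conditions.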

Additional observations from a re-analysis of the deposited data

How the results depend on the processing

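The choice of GR-gaining promoters depended most on the filter on peaks. With every list at a q-value of 0.01 or less, 508 promoters were counted instead of 1618, the share gaining GR was 30.4%, and 12.2% held LSD1 starved and 11.4% H3K9me2 fed. With the filter on GR starved peaks alone, the number was 787 and the shares were 23.9%, 42.2% and 30.9% in the same order. With the GR starved list cut to the number of GR fed peaks by fold, they were 615, 18.7% and, for LSD1 starved, 41.8%. Neither setting changes the shares over all LSD1 fed promoter peaks, 35.1% for LSD1 starved and 27.2% for H3K9me2 fed. The LSD1 starved share was thus above the background in both. These regions were picked by their GR starved q-value or fold, and the difference was not tested. When a shared region had to cover 50% of the shorter peak, the shares were 43.9%, 31.4% and 21.4%. Merging peaks within 1 kb gave a share gaining GR of 51.5% and 33.1% for H3K9me2 fed, and the window to 1 kb downstream gave a share gaining GR of 46.7%. With every list filtered, with 50% shared and with merged peaks, the LSD1 starved and H3K9me2 fed shares over all LSD1 fed promoter peaks were not computed. Leaving out the promoters whose GR starved peak reached a GR fed peak, an alternative chosen after seeing the data, gave a share gaining GR of 43.4%. The other 26 values of these 4 results stayed within 1.5 times the number reported or within the interval of the share reported. Of the values for other quantities, 24 stayed within such bounds and 10 moved. With 1 mismatch allowed, 12.1% of the LSD1 fed peaks at GR-gaining promoters held an NRF1-like motif. The share over all LSD1 fed promoter peaks was not computed for this setting. The main limits were 1 library per group, unknown depth, lists of unequal length between conditions, absent peaks that carry no value and, for both histone marks, library codes that differed with condition.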
